A study of Rattus norvegicus with 36 samples.

Results

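Tuft cells are rare cells of the gut epithelium, and 10 genes that mark them were followed in ileum and colon of rats before and after the onset of type 2 diabetes: Dclk1, Rgs13, Avil, Alox5ap, Trpm5, Pou2f3, Gfi1b, Ptgs1, Ltc4s and Sh2d6. The genes were chosen by symbol, with earlier results of these data known. Each of the 10 had its own row among the 24773 genes of the deposited RNA-seq count table. All 10 passed the filter on low counts in ileum and in colon. The study sampled 18 male UCD-T2DM rats, a polygenic line in which type 2 diabetes arises spontaneously, and each rat gave a piece of distal ileum and a piece of proximal colon, so that 36 whole-tissue libraries were sequenced. There were 6 rats without diabetes (ND, 70 days old), 6 rats with recent diabetes (D1M, called RD in the titles, 168 to 172 days old and diabetic for 22 to 23 days) and 6 rats with longer diabetes (D3M, called LD in the titles, 172 to 173 days old and diabetic for 88 to 116 days). All 3 groups were of the diabetes-prone line and were fasted before sacrifice, the diabetic rats were untreated, and the line has no genetically matched control. ND rats were younger than both diabetic groups, so that age and diabetes cannot be told apart in any comparison with ND.

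Tuft cells sense the contents of the gut with parts of the taste pathway. Receptors on the cell signal through the G protein gustducin and phospholipase C to the cation channel Trpm5, and the cell answers by releasing interleukin 25, acetylcholine and lipid mediators. In helminth infection interleukin 25 acts on innate lymphoid cells, whose interleukin 13 in turn makes the stem cells produce more tuft and goblet cells. The transcription factor Pou2f3 is required for the cells to form. Of the genes followed here, Pou2f3 and Gfi1b are transcription factors, Trpm5 and Rgs13 belong to signalling, Dclk1, Avil and Sh2d6 to structure and kinase signalling, and Alox5ap, Ltc4s and Ptgs1 to the synthesis of leukotrienes and prostaglandins.

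Libraries held 12279059 to 21510043 counts in ileum and 10024041 to 18299050 in colon. Levels are given as CPM, the count of a gene relative to the total of its library, with totals scaled by TMM over all 36 libraries. Per library, the members held 11 to 1654 counts in ileum and 0 to 759 in colon. The tissue labels were checked against 10 ileal and 10 colonic marker genes. In colon of ND rat K4028 the ileal markers summed to 13920 CPM, against at most 58.0 CPM in the other colon libraries. In ileum of ND rat K4040 the colonic markers summed to 5318 CPM, against at most 2408 CPM in the other ileum libraries. The K4028 colon library was the highest of its group for 7 of the 10 members, and for these 7 the difference between D3M and ND is also given without it. The K4040 ileum library was neither the highest nor the lowest of its group for any member. Flow cells were uneven between groups, since 0 of the 6 D3M ileum libraries but 3 of the 6 ND ileum libraries were on flow cell 2, and 0 of the 6 D3M colon libraries were on flow cell 1.

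The first comparison asked whether tuft cell genes differed in ileum between D3M and ND rats. In ileum 8 of the 10 members were lower in D3M than in ND rats at FDR < 0.05 (edgeR, Benjamini-Hochberg over all 13026 genes tested) and 0 were higher. Of all genes tested, 12.5% passed in either direction, 4.22% as lower and 8.31% as higher. The median log2 fold change of the 10 members was -0.87, beside -0.08 over all genes tested. For 5 members, Dclk1, Rgs13, Avil, Alox5ap and Gfi1b, each D3M rat was below each ND rat, a separation that 1.32% of all genes tested showed in that direction. CPM is a share of a library. In whole tissue, fewer tuft cells, less RNA of these genes per tuft cell and more RNA of other cells cannot be told apart. The paper reported taller villi and deeper crypts in D3M than in ND ileum, and their part in these values was not tested.

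Trpm5, the cation channel that opens at the end of the taste cascade (ENSRNOG00000020484, chr1:216257820-216274930 on the minus strand in rn6), ranged in ileum from 12.8 to 21.8 CPM among ND rats (median 18.3), with 11.8 to 22.5 for D1M (median 14.1) and 5.71 to 16.1 for D3M (median 12.6). All 6 D3M rats were below the ND median, although the ranges overlapped. Its level was 1.86-fold lower in D3M than in ND rats (log2 fold change -0.90 ± 0.24 (SE), n = 6 per group, edgeR FDR = 0.0226). Rgs13, which shortens signalling through G protein-coupled receptors and is also made in germinal centre B cells and mast cells (ENSRNOG00000003888, chr13:60970247-61003744 on the minus strand), lay between 7.13 and 11.1 CPM among ND rats (median 8.90), with 4.46 to 8.76 for D1M (median 5.44) and 2.83 to 6.37 for D3M (median 4.87). The ND and D3M ranges did not overlap, and 5 of the 6 D1M rats lay below every ND rat. The difference of D3M from ND was 2.18-fold (log2 fold change -1.13 ± 0.25, edgeR FDR = 0.00930), the most negative of the 10 members.

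Pou2f3 is the transcription factor that gives tuft cells their identity (ENSRNOG00000009118, chr8:47410220-47494982 on the minus strand). Its ileal level was 7.83 to 14.1 CPM among ND rats (median 9.64), against 6.99 to 10.6 for D1M (median 7.90) and 3.40 to 8.11 for D3M (median 6.55). It fell by 0.71 on the log2 scale between ND and D3M (SE 0.21, edgeR FDR = 0.0405), with all 6 D3M rats below the ND median. Gfi1b, a transcriptional repressor of blood cell progenitors that tuft cells also make (ENSRNOG00000011353, chr3:7190722-7203420 on the minus strand), had the lowest counts, with 11 to 61 per ileum library. ND rats held 1.97 to 3.21 CPM of it (median 2.35), D1M rats 1.32 to 2.74 (median 1.83) and D3M rats 0.797 to 1.92 (median 1.36). Each D3M rat was below each ND rat, but the test across all genes was not passed (log2 fold change -0.73 ± 0.29, edgeR FDR = 0.108).

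Dclk1, a microtubule-associated kinase and the usual histological marker of tuft cells (ENSRNOG00000032922, chr2:144646308-144936927 on the plus strand), ranged from 18.3 to 22.0 CPM among ND rats (median 20.3), with 12.7 to 18.4 for D1M (median 15.9) and 6.95 to 16.5 for D3M (median 12.1). It was 1.77-fold lower in D3M than in ND rats (log2 fold change -0.82 ± 0.18, edgeR FDR = 0.00835), and 5 of the 6 D1M rats also lay below all ND rats. Avil encodes advillin, an actin-bundling protein of the long microvilli that form the tuft (ENSRNOG00000050419, chr7:70292565-70310588 on the plus strand). Its values were 25.8 to 30.9 CPM among ND rats (median 29.0), against 18.8 to 28.2 for D1M (median 20.7) and 10.2 to 24.4 for D3M (median 18.4), a difference of 1.82-fold between D3M and ND (log2 fold change -0.86 ± 0.19, edgeR FDR = 0.00996). Sh2d6, an adaptor protein with an SH2 domain (ENSRNOG00000013605, chr4:100374096-100380578 on the minus strand), had 61.0 to 87.0 CPM among ND rats (median 67.6), against 44.2 to 66.9 for D1M (median 53.9) and 18.7 to 61.1 for D3M (median 38.6). The highest D3M rat, P780, was just above the lowest ND rat and the other 5 were below all ND rats. Sh2d6 had a log2 fold change of -0.87 ± 0.23 between D3M and ND (edgeR FDR = 0.0230).

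**Figure D1:**
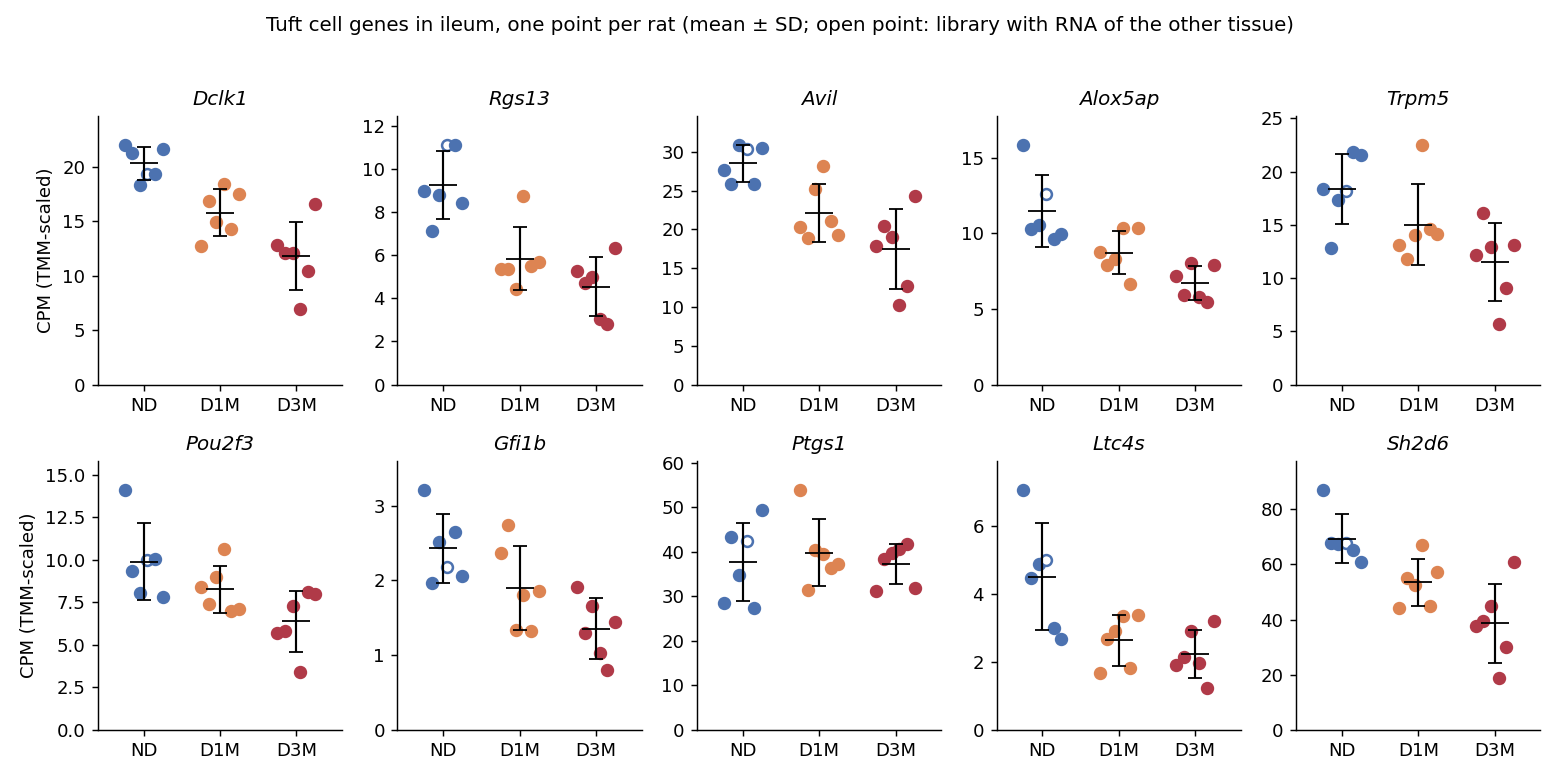
CPM of the 10 tuft cell genes in the 18 ileum libraries, with a linear axis from 0 in each panel, 1 point per rat and the mean ± SD of 6 rats per group. Points of D3M rats lie below all ND points in the panels of Dclk1, Rgs13, Avil, Alox5ap and Gfi1b, and Ptgs1 is at similar means in the 3 groups (37.6, 39.8 and 37.2 CPM).

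Since these genes were lower together, the 250 bases before the transcription start of Trpm5, Avil and Rgs13, the member at the end of the taste cascade and the 2 members that followed it most closely over the ileum libraries, were read from RefSeq (build GRCr8, not the rn6 of the counts). They are shown 5′ to 3′ on the strand of the gene, and capitals mark the letters of 2 motifs, ATGCAA or its other strand TTGCAT, which is the start of the octamer that POU factors bind, and CCAAT or its other strand ATTGG.
Trpm5, chr1:207707089-207707338, minus strand: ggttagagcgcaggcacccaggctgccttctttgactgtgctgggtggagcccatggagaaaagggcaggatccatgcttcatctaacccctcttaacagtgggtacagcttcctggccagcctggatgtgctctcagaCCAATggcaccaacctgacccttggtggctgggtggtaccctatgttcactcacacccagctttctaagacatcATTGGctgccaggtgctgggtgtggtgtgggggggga
Avil, chr7:64711153-64711402, plus strand: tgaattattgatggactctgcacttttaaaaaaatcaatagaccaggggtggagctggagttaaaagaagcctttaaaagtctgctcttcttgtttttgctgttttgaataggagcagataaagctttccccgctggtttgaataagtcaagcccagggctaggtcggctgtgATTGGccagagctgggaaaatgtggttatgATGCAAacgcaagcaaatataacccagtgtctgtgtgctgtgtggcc
Rgs13, chr13:58505923-58506172, minus strand: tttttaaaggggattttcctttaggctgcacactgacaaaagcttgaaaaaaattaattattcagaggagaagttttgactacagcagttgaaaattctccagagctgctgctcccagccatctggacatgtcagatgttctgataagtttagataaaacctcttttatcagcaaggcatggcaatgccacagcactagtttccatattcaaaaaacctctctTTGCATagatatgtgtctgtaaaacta
Of the 10 members 8 had an entry, in 9 windows, since Sh2d6 has 2, and Alox5ap and Pou2f3 had none. The full octamer ATGCAAAT, read on both strands, was in 0 of the 9 windows and in 1.56% of all 33469 RefSeq windows. Its first 6 letters were in those of Avil, 47 bases before the start, and Rgs13, 27 bases before the start on the other strand, and in 9.32% of all windows. CCAAT was in 5 of the 9 windows (Avil, Trpm5, Gfi1b, Ltc4s and 1 of Sh2d6), with 2 copies in Trpm5, and in 34.0% of all windows. These are matches of letters only.

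Among the genes of lipid mediator synthesis the members differed. Alox5ap, which presents arachidonic acid to 5-lipoxygenase at the first step of leukotriene synthesis (ENSRNOG00000000907, chr12:6854920-6879154 on the minus strand), was at 9.60 to 15.8 CPM among ND rats (median 10.4), against 6.68 to 10.4 for D1M (median 8.53) and 5.43 to 8.03 for D3M (median 6.56). It had the lowest FDR of the 10 members (log2 fold change -0.89 ± 0.17 between D3M and ND, edgeR FDR = 0.00490). Ltc4s, the enzyme that joins glutathione to leukotriene A4 and so makes the cysteinyl leukotrienes (ENSRNOG00000003244, chr10:35737664-35739625 on the minus strand), ranged from 2.66 to 7.05 CPM among ND rats (median 4.67), with 1.65 to 3.38 for D1M (median 2.78) and 1.23 to 3.18 for D3M (median 2.05). It was 2.07-fold lower in D3M than in ND rats, close to the threshold (log2 fold change -1.05 ± 0.33, edgeR FDR = 0.0463). Ptgs1, the constitutive cyclooxygenase of prostaglandin synthesis that many cell types of the gut wall also make (ENSRNOG00000007415, chr3:15560712-15582344 on the plus strand), was at 27.5 to 49.4 CPM among ND rats (median 38.6), against 31.4 to 53.9 for D1M (median 38.3) and 31.3 to 41.7 for D3M (median 39.0). Its log2 fold change between D3M and ND was -0.20 with a 95% confidence interval of -0.56 to 0.16 (edgeR FDR = 0.458).

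D1M rats lay between the other groups. For 9 of the 10 members, all but Ptgs1, the ileal mean was highest in ND, lower in D1M and lowest in D3M rats. What share of all genes had means in that order was not counted. Between D1M and ND 0 of the 10 members passed in edgeR (0.0154% of all genes did), 0 passed in DESeq2 and 0 in voom, and 5 members, Dclk1, Rgs13, Avil, Alox5ap and Ltc4s, had an unadjusted p below 0.05, as did 8.34% of all genes. All 10 log2 fold changes were negative (56.5% of all genes were), between -0.77 for Ltc4s and -0.02 for Ptgs1, with a median of -0.39. Between D3M and D1M 0 members passed in edgeR (2.22% of all genes did), 0 in DESeq2 and 1, Dclk1, in voom with quality weights (adjusted p = 0.0404). Here 6 members had an unadjusted p below 0.05, beside 19.1% of all genes, and again all 10 values were negative (56.5% of all genes were), with a median of -0.44. The comparisons share their groups, so that the values of D1M are not separate evidence for those of D3M.

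The number of members past the threshold in the comparison of D3M with ND depended on the libraries and on the fit. It was 1 (Alox5ap) when only those 2 groups entered the model and 3 without flow cell 2, while the share of all genes called in either direction fell from 12.5% to 1.46% and 4.21%. It was 6 without the K4040 ileum library (7.81% of all genes called), 5 without the ileum library of ND rat K4028 (7.76%), and 4 without either D1M rat K3986 (5.13%) or D3M rat P762 (7.46%). With 1 of the 18 ileum libraries left out in turn, Dclk1, Rgs13, Avil and Alox5ap passed in all 18 fits, Trpm5 in 16 and Sh2d6 in 15, but Pou2f3 in 6 (FDR up to 0.137) and Ltc4s in 5 (FDR up to 0.147). The log2 fold changes kept their sign throughout these fits. Within flow cell 1, which held 4 D3M and 1 ND library, all 10 members had a lower mean CPM in D3M than in ND, with a median ratio of 0.627, and within flow cell 3, with 2 libraries of each, 9 of 10 were lower, with a median ratio of 0.597. The 2 ND libraries on flow cell 3 were those of K4028, the highest ND ileum library for 6 members, and K4040, the library with high colonic markers. Flow cell 2 held ND but no D3M ileum libraries and gave no value. Shares of all genes lower within flow cells 1 and 3 were not counted.

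**Figure D2:**
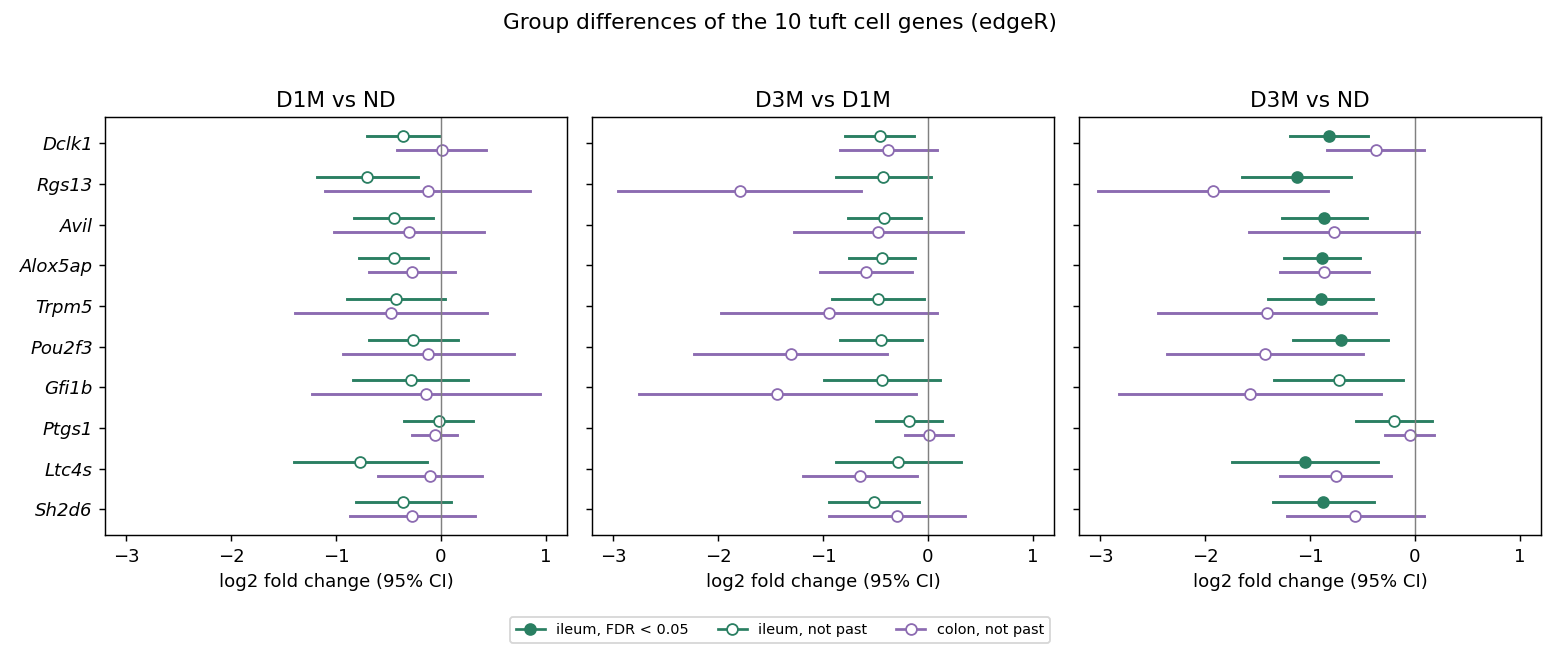
Log2 fold changes of the 10 members with 95% confidence intervals from edgeR, for D1M against ND, D3M against D1M and D3M against ND, with 6 rats per group, in ileum (green) and colon (purple). Filled points, which passed FDR < 0.05, occur only in ileum between D3M and ND, where 8 members are filled, and the colon intervals of Rgs13, Trpm5, Pou2f3 and Gfi1b in that panel are wider than those of the other 6 members.

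Markers of other cells moved with the same comparison. The 11 epithelial markers summed to 23510 to 32730 CPM in ND ileum (median 29150) and to 33730 to 46500 in D3M ileum (median 38070), and 5 of the 11, among them Vil1 and Cdhr5 of the brush border, were higher in D3M at FDR < 0.05, while Krt18, a keratin that tuft cells make strongly, was lower. Measured against the epithelial counts alone, all 10 members passed as lower in D3M, including Gfi1b (log2 fold change -1.13, edgeR FDR = 0.0178) and Ptgs1 (-0.58, FDR = 0.00684), on a scale that moved the median of all genes to -0.48 and on which 41.9% of all genes were called lower. The 9 fibroblast markers summed to a median of 946.2 CPM in ND and 732.6 CPM in D3M ileum, with 3 lower and 1 higher. The 10 ileal markers summed to a median of 29600 CPM in ND and 55380 CPM in D3M, and 8 of them were higher (median log2 fold change 0.87). Paneth cell markers overlapped between the groups, at 1731 to 11200 CPM in ND and 1617 to 6265 CPM in D3M, with 5 of 5 log2 fold changes negative (median -0.87), 0 past the threshold in edgeR, DESeq2 or voom, and 0 with an unadjusted p below 0.05. The granulocyte markers summed to 11.9 to 23.0 CPM in ND and 7.20 to 10.9 CPM in D3M, without overlap. This came mostly through Siglec5, the 1 of 2 tested that passed as lower (log2 fold change -0.88, edgeR FDR = 0.0352). Siglec5 had a mean of 10.7 CPM over the ileum libraries, while Csf3r had 1.53, Epx 0.003 and Cxcr2 0. Which cells made Siglec5 was not tested, so its difference is not shown to be one of granulocytes.

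Mast cells also make Alox5ap, Ltc4s and Rgs13. All 8 mast cell markers tested had negative log2 fold changes between D3M and ND ileum (median -0.62), and 0 passed in edgeR (2 had an unadjusted p below 0.05, DESeq2 passed 1 and voom 0), and their sum ranged from 91.6 to 246.1 CPM in ND (median 123.1) and from 31.4 to 207.2 in D3M ileum (median 94.8), with Mcpt2, Kit and Cpa3 the most abundant and Tpsb2 at 0 in 17 of 18 ileum libraries. The macrophage markers summed to 1065 to 3503 CPM in ND (median 2044) and 707.5 to 2057 in D3M ileum (median 1394), and 0 of the 10 tested passed in edgeR, DESeq2 or voom (1 had an unadjusted p below 0.05). Most of that sum was Lyz2, which Paneth cells also make, and the 10 markers that are in no other list summed to 510.3 to 570.2 CPM in ND (median 554.4) and 209.5 to 639.4 in D3M (median 486.0). The B cell and germinal centre markers summed to 83.1 to 1089 CPM in ND (median 338.3) and to 56.4 to 391.8 in D3M ileum (median 75.8). The part of these cells in the differences of Rgs13, Alox5ap and Ltc4s was not tested beyond a fit with the B cell score as covariate, in which Rgs13 and Alox5ap passed and Ltc4s did not (log2 fold change -0.99, edgeR FDR = 0.0592).

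Of 36 other genes known from tuft cells, 34 were in the table and 30 were tested in ileum. Between D3M and ND 8 were lower and 1 was higher, 27 of the 30 log2 fold changes were negative, as were 58.4% of those of all genes and all 10 of the members, and their median was -0.66. Those with the smallest p included Hmx2, a homeobox factor (log2 fold change -1.42, edgeR FDR = 0.00835), Krt18 (-0.66, FDR = 0.0190), Gnat3, which encodes the alpha subunit of gustducin (-0.93, FDR = 0.0192), and the Tec family kinase Bmx (-1.20, FDR = 0.0225). Fut2, a fucosyltransferase that other epithelial cells also make, was the gene that rose (0.64, FDR = 0.0188). The list also holds genes of low count that the filter removed, among them the cytokine gene Il25, with 78 counts over all 36 libraries.

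Of 13 genes of the taste cascade tested, 11 had negative log2 fold changes between D3M and ND ileum (median -0.31), 3 were called lower and 1 higher. The 3, Gnat3, Trpm5 and Gng13, a gamma subunit that pairs with gustducin (log2 fold change -1.17, edgeR FDR = 0.0440), were lower in D3M than in ND ileum. Tas1r2, a sweet taste receptor subunit, was higher, at a mean of 167.2 CPM in D3M and 74.2 CPM in ND rats (log2 fold change 1.05, FDR = 0.0149). Over the 18 ileum libraries Tas1r2 had a mean of 120.3 CPM, beside 14.9 for Trpm5 and 14.7 for Gnat3. Tas1r3, of the same list, had a mean of 0.029 CPM and was at 0 in 14 of the 18. In the eicosanoid synthesis list 4 of 22 genes tested were lower and 2 were higher. Besides Alox5ap and Ltc4s, thromboxane synthase Tbxas1 was lower (-0.69, FDR = 0.00441), and the 2 that rose were Ggt1, a brush border enzyme that removes glutamate from leukotriene C4 (0.82, FDR = 0.0117), and the microsomal glutathione transferase Mgst2 (0.42, FDR = 0.0329). Among 5 eicosanoid receptors tested 0 passed in edgeR, DESeq2 or voom and 0 had an unadjusted p below 0.05, and among 9 genes of the type 2 immune circuit Il4r (0.47, FDR = 0.0360) and Areg (0.92, FDR = 0.0391) were higher and 0 were lower in edgeR, with 1 lower at an unadjusted p below 0.05 and 0 lower in DESeq2 and voom. Between D3M and D1M ileum 1 other tuft cell gene, Cd24, passed (-0.41, edgeR FDR = 0.0357).

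In colon 0 of the 10 members passed between D3M and ND in edgeR, as against 0.0155% of all 12906 genes tested. All 10 log2 fold changes were negative (52.4% of all genes were), between -1.92 for Rgs13 and -0.05 for Ptgs1, with a median of -0.82 beside -0.01 over all genes. The group mean was highest in ND and lowest in D3M for 9 of the 10, all but Dclk1, and the share of all genes in that order was not counted. At an unadjusted p below 0.05 there were 6 members (Rgs13, Alox5ap, Trpm5, Pou2f3, Gfi1b and Ltc4s), beside 10% of all genes, and the lowest FDR was 0.233. DESeq2 passed 2, Rgs13 (adjusted p = 0.0474) and Alox5ap (adjusted p = 0.0156), while it called 0.558% of all genes, and voom passed 0. The edgeR fit of the 2 groups alone also passed these 2, and called 2.50% of all genes. In the fit of all groups, the 2 genes of all those tested that passed were fibroblast markers, Col1a1 (log2 fold change -0.999, edgeR FDR = 0.0317) and Col3a1 (-0.96, FDR = 0.0345). All 9 fibroblast markers tested had negative values there (median -0.59), and their sum was 1017 to 1945 CPM in ND (median 1351) and 636.1 to 1061 CPM in D3M colon (median 803.5). Their part in the values of the members was not tested.

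Rgs13 was the member whose colon ranges stood apart, as 0.465% of all genes did in that direction. Its level was 1.24 to 5.13 CPM among ND rats (median 2.82), against 0.926 to 4.599 for D1M (median 2.16) and 0.161 to 1.18 for D3M (median 0.856), from 2 to 20 counts per D3M library. Each D3M rat was below each ND rat, and the highest ND value was that of the K4028 library. The log2 fold change was -1.92 ± 0.52 (edgeR FDR = 0.272), and -1.66 without the K4028 colon library. B cell markers summed to 42.3 to 814.8 CPM in ND colon and to 41.7 to 383.9 CPM in D3M colon. Their part in the level of Rgs13 was not tested beyond a fit with the B cell score. In that fit 0 of the 10 members passed, as in the fit without the score, so the count of calls cannot show that part. Over the 12 alternative fits, this one among them, the log2 fold change of Rgs13 between D3M and ND was -2.12 to -1.66.

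Alox5ap was at 8.21 to 18.4 CPM for ND (median 12.8), 8.64 to 12.2 for D1M (median 10.1) and 3.78 to 9.13 for D3M (median 7.98). All 6 D3M rats were below the ND median (log2 fold change -0.86 ± 0.20, edgeR FDR = 0.233). Ltc4s, which acts later in the same path, was at 2.64 to 5.06 CPM for ND (median 3.49), 2.48 to 6.25 for D1M (median 2.96) and 1.29 to 3.06 for D3M (median 2.42), again with all 6 D3M rats below the ND median (log2 fold change -0.75 ± 0.25, FDR = 0.364, and -0.70 without the K4028 library, its highest ND value). The sum of the mast cell markers moved with these values, from 386.6 to 772.1 CPM in ND (median 583.8) and 335.6 to 769.7 in D1M (median 535.6) to 164.9 to 436.7 in D3M colon (median 313.8). All 9 mast cell markers tested had negative log2 fold changes between D3M and ND, with 0 past the threshold in edgeR and voom, 4 at an unadjusted p below 0.05 and 2 past it in DESeq2. Mcpt2 and Kit were the most abundant, and Tpsb2 was at 0 in 16 of 18 colon libraries. The part of mast cells in the colon values of Alox5ap and Ltc4s was not tested.

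Trpm5 ranged in colon from 1.89 to 6.84 CPM among ND rats (median 3.59), with 0.973 to 6.25 for D1M (median 2.02) and 0.563 to 2.87 for D3M (median 1.56). Its highest ND value was again that of the K4028 library, and the log2 fold change of D3M against ND was -1.41 ± 0.49 with it (edgeR FDR = 0.368) and -1.14 without it. Pou2f3 was at 0.967 to 3.67 CPM for ND (median 1.65), 0.908 to 4.74 for D1M (median 1.28) and 0.563 to 1.13 for D3M (median 0.787), and all 6 D3M rats were below the ND median (log2 fold change -1.43 ± 0.44, FDR = 0.336, and -1.22 without the K4028 library). Gfi1b was at 0.537 to 1.46 CPM for ND (median 0.744), 0.219 to 1.44 for D1M (median 0.865) and 0 to 0.602 for D3M (median 0.303), with a log2 fold change of -1.57 ± 0.59 (FDR = 0.383, and -1.37 without the K4028 library). Its count of 0 in D3M rat P780, of 14386393 counts in that library, allows a level of up to 0.209 CPM (3 counts, counting error only). On simulated data for this comparison, 69 of 12793 genes, drawn over all expression levels, were changed by 2-fold, and 55.1% of these were recovered. The number of changed genes was set and not taken from the data. Genes of low count were not simulated apart, so the recovery of these members was not measured.

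**Figure D3:**
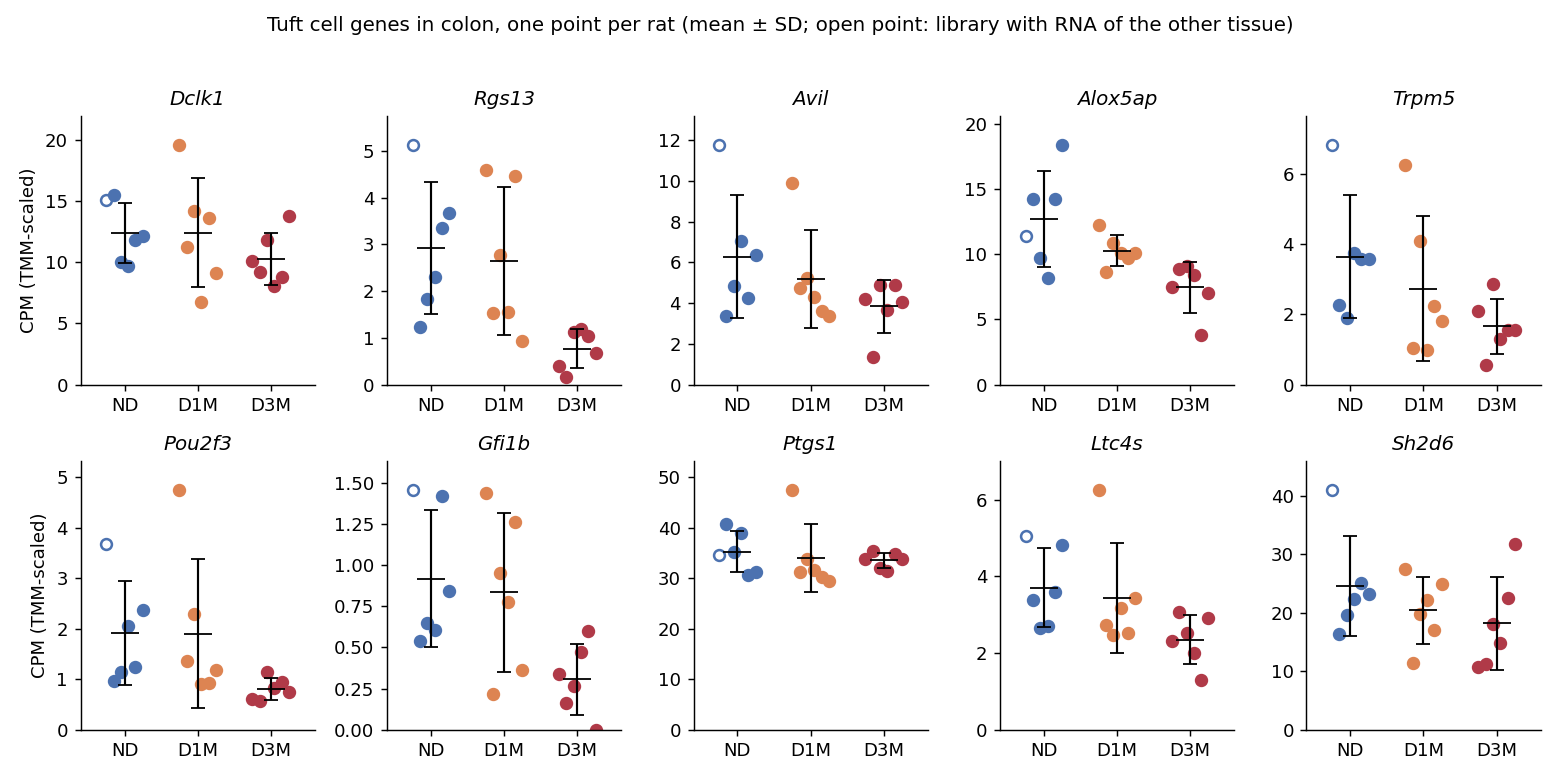
CPM of the 10 tuft cell genes in the 18 colon libraries, with a linear axis from 0 in each panel, 1 point per rat and the mean ± SD of 6 rats per group, and with the library of ND rat K4028 as an open point. The open point is the highest ND value in 7 panels, 1 D1M rat (K3978) is the highest of its group in all 10, and the D3M points of Rgs13 lie below all ND points.

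The ranges of the structural genes overlapped between the colon groups. All 6 D3M rats were below the ND median for Avil, and 5 were for Dclk1 and for Sh2d6. Without the K4028 library the ND median of Avil was 4.85 CPM, just below its highest D3M value. Avil was at 3.38 to 11.8 CPM for ND (median 5.60), 3.34 to 9.92 for D1M (median 4.52) and 1.37 to 4.90 for D3M (median 4.14), with a log2 fold change of -0.77 ± 0.38 between D3M and ND (edgeR FDR = 0.515). Dclk1 was at 9.72 to 15.5 CPM for ND (median 12.0), 6.74 to 19.6 for D1M (median 12.5) and 8.08 to 13.8 for D3M (median 9.63), and differed by -0.37 ± 0.22 on the log2 scale (FDR = 0.576). Sh2d6 was at 16.3 to 41.0 CPM for ND (median 22.8), 11.4 to 27.4 for D1M (median 21.0) and 10.7 to 31.7 for D3M (median 16.5), and differed by -0.57 ± 0.31 (FDR = 0.553). Without the K4028 colon library, the highest ND value of Avil and Sh2d6, these differences were -0.49 for Avil and -0.29 for Sh2d6. Ptgs1 lay within 29.5 to 47.5 CPM in all 18 colon libraries, with a difference of -0.05 between D3M and ND (95% confidence interval -0.28 to 0.18).

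Of the other tuft cell genes 26 were tested in colon. Between D3M and ND 24 had a negative log2 fold change, as did 52.4% of all genes. The median of the 26 was -0.68, beside -0.01 over all genes. Of the 26, 0 passed in edgeR, and DESeq2 and voom passed 1 as higher and 0 as lower. At an unadjusted p below 0.05 in edgeR, 10 were lower and 1 was higher, beside 10% of all genes in either direction. Between D1M and ND colon 0 members passed in edgeR (0% of all genes did), DESeq2 or voom, and 0 had an unadjusted p below 0.05 (4.66% of all genes did). Between D3M and D1M colon 0 passed in all 3 tools (0% of all genes in edgeR), with 5 at an unadjusted p below 0.05, beside 5.28% of all genes, and a lowest FDR of 0.88. Within flow cell 2, with 4 D3M and 2 ND colon libraries, 9 of the 10 members had a lower mean in D3M than in ND (median ratio 0.551), and within flow cell 3, with 2 libraries of each and the K4028 library among them, 10 did (median ratio 0.393). Shares of all genes lower within these flow cells were not counted.

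Whether the group differences of colon and ileum were unlike each other was tested directly. For D3M against ND, 0 of the 10 members differed between the tissues in edgeR, DESeq2 or voom (1.56% of all genes did in edgeR), and 0 had an unadjusted p below 0.05 (16.8% of all genes did). The colon minus ileum values of that difference ran from -0.89 for Gfi1b (95% confidence interval -2.23 to 0.44) to 0.40 for Dclk1 (-0.19 to 0.99). For D1M against ND 0 passed in the 3 tools (0% of all genes in edgeR), and 0 had an unadjusted p below 0.05 (5.66% of all genes did). For D3M against D1M 0 passed in the 3 tools (0% of all genes in edgeR), and Rgs13 alone had an unadjusted p below 0.05, beside 8.31% of all genes (-1.41, 95% confidence interval -2.57 to -0.24, edgeR FDR = 0.512). The passing of the threshold in ileum and not in colon is therefore not a shown difference between the tissues.

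Between the tissues themselves 7 of the 10 members were lower in colon than in ileum and 0 were higher (edgeR over 36 libraries, 13697 genes tested), beside 34.5% of all genes lower, 38.7% higher and 73.2% called in either direction. The median log2 fold change of the 10 members was -1.46, beside 0.03 over all genes. Trpm5, Pou2f3, Avil, Rgs13, Gfi1b and Sh2d6 were lower in colon than in ileum in each of the 18 rats. How many of all genes were lower in each rat was not counted.

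Over 18 rats Trpm5 was at 5.71 to 22.5 CPM in ileum (median 14.1) and 0.563 to 6.84 in colon (median 2.17), a 5.77-fold difference (log2 fold change -2.53 ± 0.22, edgeR FDR = 4.88e-12). Pou2f3 was at 3.40 to 14.1 CPM in ileum (median 8.00) and 0.563 to 4.74 in colon (median 1.13), 5.67-fold lower (-2.50 ± 0.19, FDR = 1.66e-13). Avil was at 10.2 to 30.9 CPM in ileum (median 22.7) and 1.37 to 11.8 in colon (median 4.52), 4.45-fold lower (-2.16 ± 0.16, FDR = 1.18e-13). The ranges of all 10 members overlapped between the tissues, while 6.87% of all genes were lower in each colon library than in each ileum library. For Avil the overlap came from the K4028 colon library, as the next colon value, 9.92 CPM, was below the lowest ileum value. Rgs13 (-1.70 ± 0.23), Gfi1b (-1.52 ± 0.24) and Sh2d6 (-1.40 ± 0.15) differed less, with FDR values of 5.94e-08, 1.04e-06 and 4.15e-10.

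Dclk1 differed least among those that passed, at 6.95 to 22.0 CPM in ileum (median 16.7) and 6.74 to 19.6 in colon (median 11.5). Its level was lower in colon in 16 of 18 rats (log2 fold change -0.49 ± 0.11, edgeR FDR = 0.000216), but 0.08 higher on the log2 scale when library sizes were set to the epithelial counts, a scale on which the median of all genes was 0.60. Smooth muscle and enteric neuron markers were higher in colon, with 8 of 9 and 6 of 10 tested past the threshold, and their part in the colon level of Dclk1 was not tested. The enzymes of lipid mediator synthesis did not pass. Alox5ap was higher in colon in 11 of 18 rats (log2 fold change 0.15, 95% confidence interval -0.06 to 0.36), Ltc4s in 10 (-0.00, -0.33 to 0.33) and Ptgs1 in 5 (-0.12, -0.28 to 0.03). All 9 mast cell markers tested were higher in colon (median log2 fold change 1.35), and their part in the values of Alox5ap and Ltc4s was not tested.

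**Figure D4:**
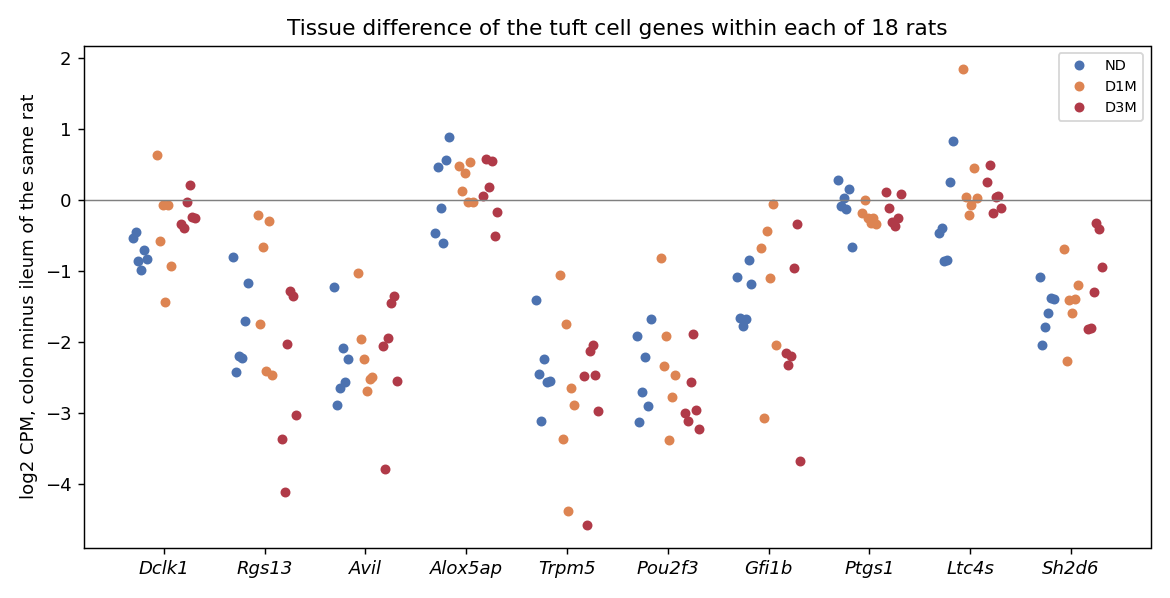
Log2 CPM in colon minus ileum of the same rat for the 10 members, 1 point per rat, coloured by group, on a linear axis with a line at 0. All 18 points of Rgs13, Avil, Trpm5, Pou2f3, Gfi1b and Sh2d6 lie below 0, and those of Alox5ap and Ltc4s lie on both sides, with 11 and 10 of 18 above 0.

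The other tuft cell genes were mixed between the tissues, with 19 of 29 tested lower and 7 higher in colon and a median log2 fold change of -0.89. Those with the smallest p included Gnat3 (-3.45), the interleukin 25 receptor subunit Il17rb (-2.15), the inositol trisphosphate receptor Itpr3 (0.57), Cd24 (-0.78) and Krt23 (-3.22), all with an edgeR FDR below 0.05. In the taste list 8 of 13 were lower and 3 higher in colon, with Tas1r2 (-2.76), Gnat3, Itpr3 and Trpm5 at the smallest p. The eicosanoid synthesis list moved both ways, with 6 of 24 tested lower and 7 higher, led by Mgst3 (1.73), Lta4h, the hydrolase that makes leukotriene B4 (-1.34), the prostaglandin E synthase Ptges2 (1.05) and the phospholipase Pla2g10 (2.51).

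The members varied together between ileum libraries. Over 18 ileum libraries the 45 pairs of members had a median Pearson r of 0.74 for log2 CPM, and 33 pairs passed the permutation test for both r and rho after Benjamini-Hochberg adjustment over the 45 pairs. Libraries were permuted across groups and flow cells, so group differences that members share also enter these p-values. The r with group and flow cell effects removed was not tested. The closest pair was Dclk1 and Sh2d6 (r = 0.966, rho = 0.915, n = 18; two-sided permutation p = 1e-05 and 2e-05, adjusted p = 5.62e-05 and 0.000129; 1e-05 is the smallest p the permutations can give), with r = 0.922 without the 2 libraries farthest from the median. With group and flow cell effects removed together, r was 0.927 for this pair and had a median of 0.46 over the 45 pairs. Alox5ap and Ltc4s, neighbouring steps of leukotriene synthesis, were a close pair in ileum (r = 0.878, rho = 0.858, permutation p = 2e-05 and 1e-05, adjusted p = 9e-05 and 7.5e-05, and r = 0.780 without the 2 libraries farthest from the median). Ptgs1 stood apart, with r between -0.32 and -0.08 to the other 9 members and 0 of its 9 pairs past the test.

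In colon the median r over the 45 pairs was 0.49, and 11 pairs passed for both r and rho in the same test, which shared group differences also enter. The closest was Avil with Pou2f3 (r = 0.845, rho = 0.754, n = 18; permutation p = 1e-05 and 0.00049, adjusted p = 0.00045 and 0.00562; r = 0.853 without the 2 libraries farthest from the median). Alox5ap was close to Ltc4s in colon too (r = 0.787, rho = 0.723, permutation p = 0.00025 and 0.00108, adjusted p = 0.00167 and 0.00972), but r fell to 0.588 without the 2 farthest libraries. With group and flow cell effects removed, Alox5ap had a median r of -0.00 to the other 9 members in colon and 0.53 in ileum.

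**Figure D5:**
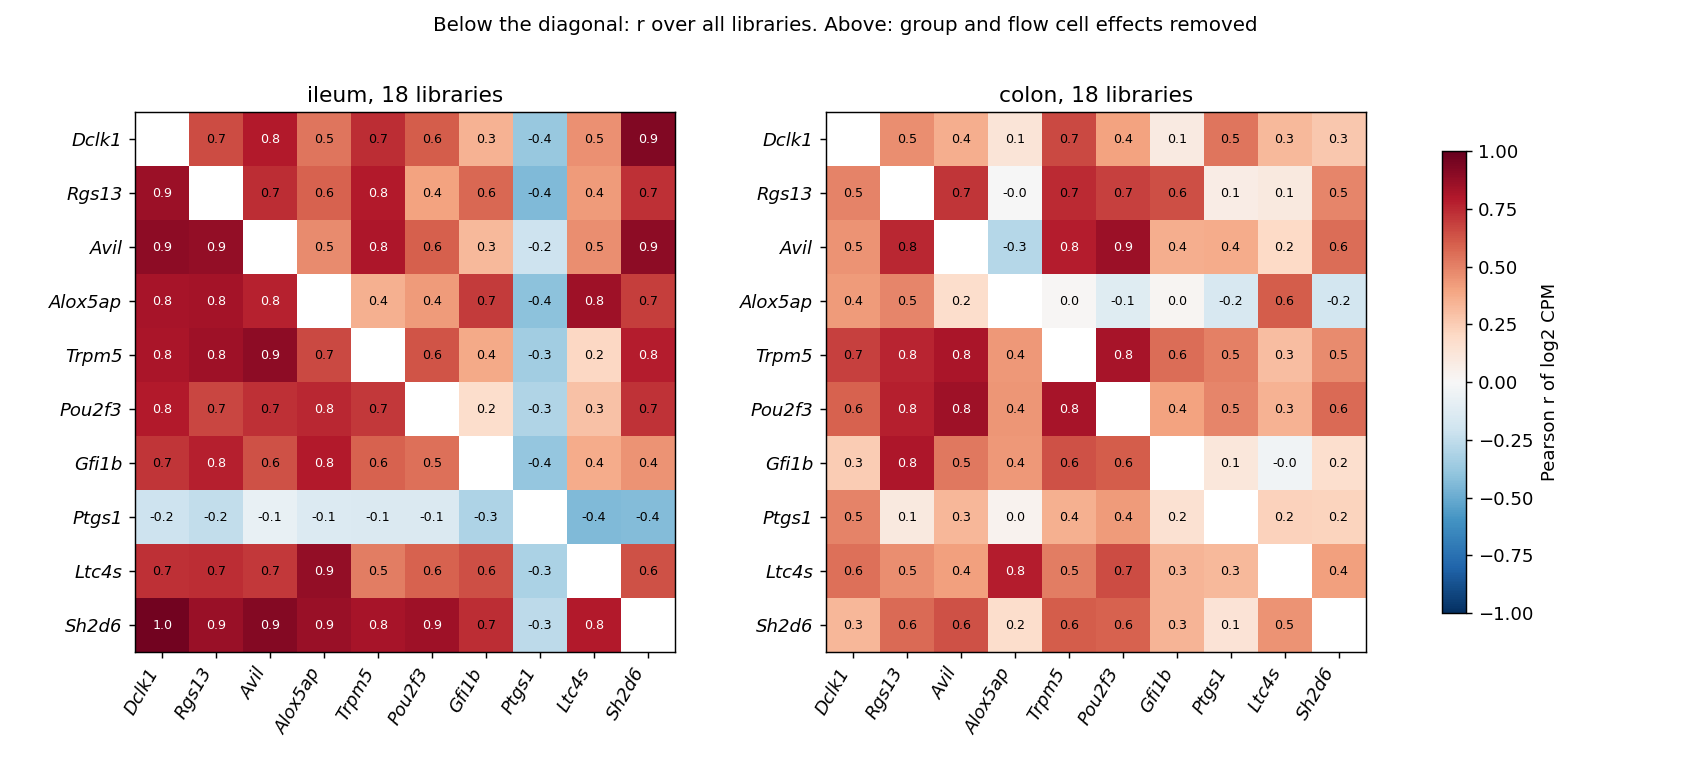
Pearson r between members over the 18 ileum and the 18 colon libraries, on a colour scale from -1 to 1, with r of log2 CPM below the diagonal and r after removal of group and flow cell effects above it. The ileum panel is positive except for the row and column of Ptgs1, and in the colon panel, where all 45 values below the diagonal are positive, the 3 pairs among Avil, Trpm5 and Pou2f3 are at 0.818 to 0.845.

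Among all 13025 other genes tested in ileum, the 8 whose log2 CPM followed Trpm5 most closely after removal of group and flow cell effects were Ccdc129 (r = 0.900), Ffar3, a receptor for short-chain fatty acids (0.824), Avil (0.808), Rgs13 (0.790), Camp (0.787), Sh2d6 (0.785), Rgp1 (0.775) and Rell2 (0.755). Over these 18 ileum libraries 3 of the 8 were members, and 2 of them, Avil and Rgs13, are those whose start windows were printed beside that of Trpm5. Dclk1 ranked 11, Pou2f3 29, Gfi1b 573, Alox5ap 727, Ltc4s 2332 and Ptgs1 12276. Some of these values rest on few libraries: without the 2 farthest, r of log2 CPM with Trpm5 was 0.333 for Camp (0.686 with all 18), 0.255 for Rell2 (0.586) and 0.477 for Rgp1 (0.664), but 0.819 for Avil (0.895) and 0.839 for Rgs13 (0.850). The median residual r over all ileum genes was 0.01, and 7 of the 30 other tuft cell genes tested were among the 100 closest. In colon the 8 closest were Cfap65 (r = 0.877), Ceacam1 (0.865), Abtb2 (0.863), Npc1 (0.860), Eml2 (0.854), Baiap2l2 (0.848), B4galt5 (0.846) and Ppp2r1b (0.842), with 0 members among them. Pou2f3 ranked 13 of 12905 there, Avil 31 and Rgs13 59.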

How the data were processed

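RNA of whole distal ileum and proximal colon was sequenced as 36 libraries of 18 rats. According to the authors, libraries were stranded and made from polyadenylated RNA, STAR placed the reads on rn6, and SeqMonk counted them per gene. Neither the STAR version nor the counting's strand setting is given in the sources used here, and genes that overlap on opposite strands may share reads. The deposited raw table holds whole counts of 24773 genes with no normalization, and the deposited log2 table holds the authors' log2 counts scaled to library totals, which served here only to check library names and order. The 72 columns of standard deviations were not used. Groups, rats and flow cells were taken from the deposited labels, and p-values of comparisons within a tissue measure the spread between rats. The main tests of colon against ileum and of tissue differences treated both libraries of a rat as independent. Their p-values measure the spread between libraries, except where the rat was a block.

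Genes were kept by filterByExpr, scaled by TMM and fitted in edgeR 4.0.16 under R 4.3.3 (glmQLFit, robust, legacy form) with group and flow cell (3 levels), on the 18 libraries of a tissue, with glmQLFTest and Benjamini-Hochberg adjustment over all genes. Colon was compared with ileum over 36 libraries, and the tissue difference of each group contrast with flow cell within tissue. Fold changes use the fitted model and levels use CPM, so that both can differ where flow cells are uneven. Log2 CPM for correlations had a prior count of 2, and permutation tests were two-sided with 100000 resamples of the libraries of a tissue across groups and flow cells. No 2 libraries were identical. Members and gene lists were chosen with earlier results of these data known. All 10 members are named, and of each list up to 6 (other tuft cell genes) or 4 (taste and eicosanoid lists) genes with the smallest p among those past the threshold. Of the genes this rule names, 1 is not reported here. Further names from the lists were chosen after their values were seen.

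The 2 libraries of a rat pair the tissues through the rat's label. Their deviations from the group means had correlations between -0.56 and 0.77 (median -0.02), with 7 of 18 over 0.1. On simulated data made from these counts, edgeR recovered 17.7% of genes changed by 1.5-fold and 68.2% of those changed by 2-fold between D3M and ND in ileum, and 27.5% and 55.1% in colon. The genes so changed were 62 and 66 of 12927 in ileum and 69 and 69 of 12793 in colon. Recovery after Benjamini-Hochberg adjustment depends on the share of genes changed, which was set and not taken from the data. Alternatives were the size factors of DESeq2 (RLE), upper quartile scaling, library sizes from 11 epithelial genes, 2 other filters, DESeq2 1.42.0, voom with quality weights (limma 3.58.1), no flow cell term, no flow cell 2, no libraries with RNA of the other tissue, a B cell score as covariate, 2 groups only, the rat as block, and fits that lacked 1 library each. Promoter windows were searched with Python.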

Additional observations from a re-analysis of the deposited data

Results flagged for a closer look

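In each of the 60 groups of 6 libraries (10 members, 2 tissues and 3 conditions), the highest and the lowest library were compared with the rest by Dixon's ratio at its 95% critical value. Chance alone would flag about 1 in 20 independent groups. These groups share libraries and their members vary together, so the 11 flagged cannot be set against that rate. Of the 11, 4 were the colon library of D1M rat K3978, at 9.92 CPM of Avil (next 5.24), 4.74 of Pou2f3 (next 2.29), 47.5 of Ptgs1 (next 33.9) and 6.25 of Ltc4s (next 3.45). This library was the highest of its group for all 10 members and also had the highest sum of smooth muscle markers of the 18 colon libraries, 20440 CPM, and its part in the spread of D1M colon was not tested beyond leaving it out. The colon library of ND rat K4028, which holds ileal RNA, was flagged at 6.84 CPM of Trpm5 (next 3.74) and 41.0 of Sh2d6 (next 25.0), and the ileum library of the same rat at 14.1 CPM of Pou2f3 (next 10.0) and 87.0 of Sh2d6 (next 68.0). The ileum library of D1M rat K3988 stood above its group at 8.76 CPM of Rgs13 (next 5.68) and 22.5 of Trpm5 (next 14.6). The single low library was that of D3M rat K3961 in colon, at 1.37 CPM of Avil (next 3.66), which rests on 17 counts.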

How the results depend on the processing

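Between D3M and ND ileum the 8 members past the threshold became 3 without flow cell 2, 1 with only the 2 groups in the fit, and 4 to 8 with a library left out, and were 6 to 10 under the other alternatives. Between D3M and D1M ileum 0 became 1 (Dclk1) with library sizes of the epithelial genes and 1 (Dclk1) with voom. Between D3M and ND colon 0 became 2 with DESeq2 and 2 with only the 2 groups in the fit. The counts of the other group comparisons and of the tissue interactions were 0 in all fits, leave-one-out included, and colon against ileum gave 7 to 9 (6 lower and 3 higher with epithelial library sizes, which moved the median of all genes from 0.03 to 0.60), and 7 to 8 with a library left out. With the rat as replicate block 7 members were lower in colon (Trpm5 -2.67, Dclk1 -0.50) and 0 interactions passed, so that the block changed no call. The median r between members fell from 0.74 to 0.46 in ileum and from 0.49 to 0.37 in colon with group and flow cell effects removed.

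Signs turned mainly for values near 0. Against ileum, colon Dclk1 (main -0.49) was 0.082, Ptgs1 0.46 and Ltc4s 0.56 with epithelial library sizes, and Ltc4s (main -0.00) was 0.051 with upper quartile scaling, 0.056 with no flow cell term and 0.0070 with the B cell score. Between D1M and ND colon, Rgs13 was 0.15, Avil 0.0014, Pou2f3 0.10 and Gfi1b 0.054 without the 2 libraries with RNA of the other tissue, Rgs13 was 0.24, Gfi1b 0.20 and Ltc4s 0.077 without flow cell 2, and Dclk1 (main 0.01) was -0.016 with upper quartile scaling, -0.072 with epithelial library sizes and -0.24 with voom. Ptgs1 was 0.075 with no flow cell term and 0.052 without flow cell 2 between D1M and ND ileum, and -0.023, -0.14, -0.0026 and -0.046 between D3M and D1M colon with no flow cell term, without flow cell 2, with the B cell score and with 2 groups only. With single libraries left out, values between D1M and ND colon ran from -0.57 to 0.0014 for Avil, -0.15 to 0.11 for Dclk1, -0.43 to 0.11 for Gfi1b, -0.30 to 0.0020 for Ltc4s, -0.53 to 0.10 for Pou2f3 and -0.47 to 0.15 for Rgs13. Those of Ptgs1 ran from -0.035 to 0.12 between D3M and D1M colon, -0.10 to 0.0083 between D3M and ND colon and -0.15 to 0.11 between D1M and ND ileum, and those of Ltc4s from -0.074 to 0.055 between the tissues. None of these calls had passed but that of Dclk1. The cause of these changes was not tested.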
